A study of Mus musculus with 8 samples.

Results

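The ATP-binding cassette (ABC) transporters described here are the members of subfamilies A, B, C and G, proteins that use ATP to move lipids, bile acid conjugates, drugs and metabolites across membranes. They were chosen by gene symbol, as every entry whose name begins with Abca, Abcb, Abcc or Abcg and a number and is not a pseudogene. The rule found 42 genes of 34745 in the tables, with 16 in subfamily A, 10 in B, 10 in C and 6 in G. The study profiled isolated crypts of wild-type C57BL/6 mice on day 5 by RNA sequencing, in 2 groups of 4 libraries. The DSS_CA libraries are labelled DSS plus CA, where DSS is dextran sulfate sodium, a sulfated polysaccharide used to injure the intestinal lining, and CA is cholic acid in the series title. The DSS libraries are labelled with DSS and no CA. All 8 libraries thus come from DSS-exposed mice, and no library of untreated mice was analysed here. Gut segment, dose, route, age and sex are not given in the labels used here, nor whether replicates are separate mice, so that p-values measure only the spread between these libraries, which may be technical.

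In the intestinal epithelium, ABC exporters work in opposition to uptake. The ABCG5 and ABCG8 proteins join into a heterodimer in the apical membrane that returns plant sterols and cholesterol to the lumen, and ABCA1 loads cholesterol onto lipid-poor apolipoprotein A-I at the basolateral side. P-glycoprotein, ABCG2 and the ABCC2 protein return drugs and conjugates to the lumen, whereas the ABCC3 protein sends conjugates and bile acids towards the blood. Oxysterol receptors (LXR), the bile acid receptor FXR, the xenobiotic receptors PXR and CAR and the oxidant-responsive factor NRF2 are known regulators of several of these genes.

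Abcg5 and Abcg8 (ENSMUSG00000040505 and ENSMUSG00000024254) are neighbours on mouse chromosome 17 that are read in opposite directions. In the deposited tables Abcg5 spans 84658234 to 84683011 on the minus strand, and Abcg8 spans 84676302 to 84700333 on the plus strand (GRCm38). Their RefSeq starts lie on either side of a stretch of 109 bases. It is printed because, by those starts, both subunits of the sterol exporter are transcribed away from it. It covers chr17:84683012-84683120 of GRCm38.p6 and is written on the plus strand, with both GATA boxes in capitals (AGATAA on the opposite strand). The deposited span of Abcg8 begins inside that of Abcg5 and includes this stretch, which is therefore intergenic by the RefSeq starts only.

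Abcg5-Abcg8 intergenic stretch: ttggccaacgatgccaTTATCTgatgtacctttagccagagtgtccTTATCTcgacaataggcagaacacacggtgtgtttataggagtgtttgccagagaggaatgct

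RefSeq promoter windows of 300 bases, from 250 before to 50 after a start, were matched by symbol for 33 of the 42 members and gave 38 windows. A GATA box (AGATAA, either strand) was present in 5 of them (13.2%), against 11.2% of all 32851 windows. The direct repeat of AGGTCA with 4 bases between the copies, a form bound by LXR, was present in 0 of the 38 and in 0.0152% of all windows, on either strand. The inverted repeat of AGGTCA and TGACCT with 1 base between them, a form bound by FXR, was likewise in 0 of the 38 and in 0.00913% of all windows. These are matches of letters in these windows and do not locate binding.

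Abcb1a and Abcb1b, which both encode P-glycoprotein in the mouse, stand side by side on chromosome 5 and are so alike that reads can be shared. Their longest identical coding stretch ran over 338 bases. The 135 bases of it around the codons of the ABC signature motif (capitals), a conserved part of the nucleotide-binding domain, are shown because a read inside them could not be assigned to either gene. They are bases 1519 to 1653 of the Abcb1a coding sequence and 1528 to 1662 of that of Abcb1b in GENCODE M21 transcripts.

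Abcb1a and Abcb1b shared stretch: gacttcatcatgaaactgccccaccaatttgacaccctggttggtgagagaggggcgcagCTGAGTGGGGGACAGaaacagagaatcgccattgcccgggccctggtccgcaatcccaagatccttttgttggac

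Total counts lay between 13334012 and 17973196 per library, and the members took 0.0848% to 0.202% of them. Counted genes had a mean length of 2412, 2007, 1445 and 2019 bases in DSS_CA 1 to 4 and of 2234, 1423, 1448 and 1719 bases in DSS 1 to 4. This mean is the total count over the sum of each gene's count divided by its length, so that abundant genes weigh most. By it, DSS_CA 3, DSS 2 and DSS 3 stood apart as the libraries of shortest counted genes. Mitochondrial transcripts took 9.72% to 27.7% of the counts of a library. Enterocyte markers were abundant in every library, with sums over 12 genes of 29000 to 94260 CPM (counts scaled to a common library size), and 6 colonocyte markers summed to 233 to 670 CPM, with Car1 at 0 counts throughout. Markers of fibroblasts, endothelium, muscle and neutrophils summed to at most 7.07 CPM in any library. Markers of goblet, Paneth and T and NK cells had median log2 fold changes of -1.03, -1.62 and -1.90 in DSS_CA against DSS. The 3 tested colonocyte markers went the other way, with a median of 0.72. With the filter given below, 0 genes of these lists passed the test. The groups did not overlap for 2 of 6 goblet, 0 of 6 Paneth, 5 of 8 T and NK and 0 of 3 colonocyte markers. Fewer cells of a type and less RNA per cell cannot be told apart in such bulk samples.

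The crypts carried a short list of abundant ABC transporters, headed by the sterol exporter and by the apical drug exporters. Of the 42 members, 17 reached at least 1 FPKM (the deposited unit, which divides a count by gene length and library total) in at least 4 of the 8 libraries and were tested, 22 had counts but stayed below that level, and 3 had no count in any library. The 3 without a count were Abcb5, Abca16 and Abca17, and a count of 0 in a library leaves room for up to 3. Per length, Abcg5 was the most abundant member in every library, at 76.5 ± 12.6 FPKM in DSS_CA and 77.4 ± 7.95 FPKM in DSS (SD, n = 4 each). Abcb1a followed at 36.8 ± 13.7 FPKM in DSS_CA and 22.0 ± 9.51 FPKM in DSS, and Abcc2 at 28.8 ± 13.7 FPKM in DSS_CA and 21.3 ± 15.1 FPKM in DSS. Abcg8 stood at 23.2 ± 9.50 FPKM in DSS_CA and 25.0 ± 12.4 FPKM in DSS. Compared within libraries, Abcb1a was above Abcc2 and Abcg8 in every DSS_CA library. In the DSS libraries their order varied, with Abcb1a the lowest of these genes in DSS 1 and the highest in DSS 2. The 5 most abundant members of a library held 72.5% to 83.2% of its summed member FPKM.

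**Figure D1:**
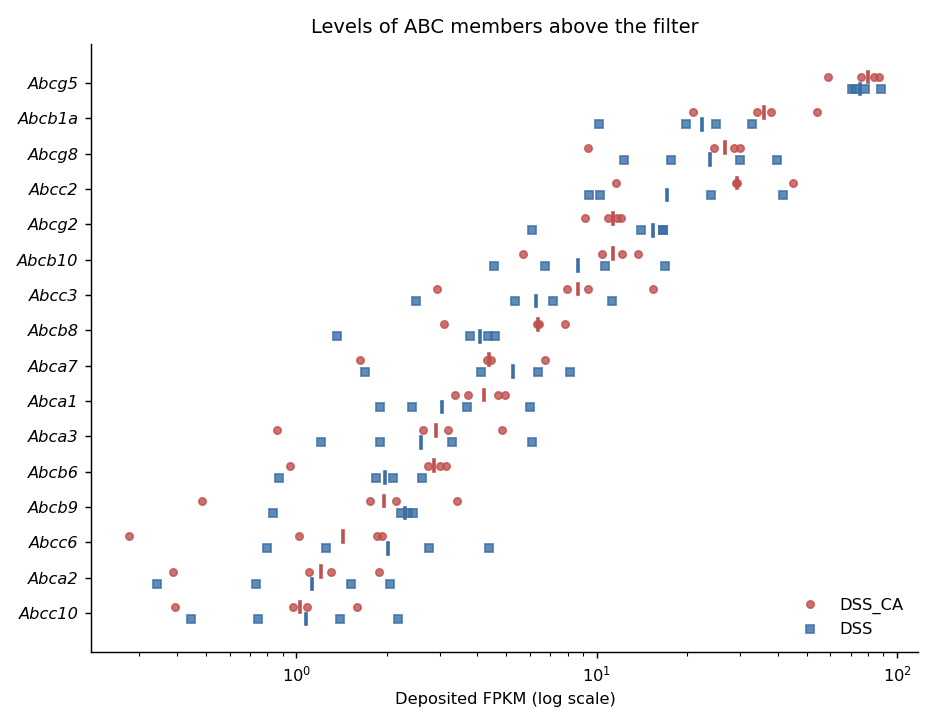
Deposited FPKM (log axis) of 16 of the 17 members above the filter, 1 point per library, with a short vertical line at each group's median; DSS_CA is drawn above DSS for each gene. Abcg5 lies between 58.9 and 88.3 FPKM in all 8 libraries, and the points of both groups are interleaved for nearly every gene.

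None of the 17 tested members passed the test between DSS_CA and DSS. With edgeR's quasi-likelihood test and Benjamini-Hochberg adjustment over all 9913 genes tested, 0 members were higher and 0 lower at an adjusted p of 0.05, where 0.131% of all tested genes passed (0.0404% higher and 0.0908% lower). The members' adjusted p-values ran from 0.669 to 0.9995. At an unadjusted p below 0.05 there were 0 of the 17, against 775 of all genes (7.82%). DESeq2 also called 0 members, with 1 (Abcc6) at an unadjusted p below 0.05, while it called 220 of 9902 genes (2.22%). Of the estimates, 7 were above 0 and 10 below, with a median log2 fold change of -0.16, beside 0.02 for all tested genes. The 95% intervals were wide, reaching -2.12 for Abcc6 and 1.25 for Abcb1a, so 0 calls do not show that the groups were alike. Groups did not overlap in scaled CPM for 1 of the 17 members, Abcb1a, against 6.05% of all tested genes.

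**Figure D2:**
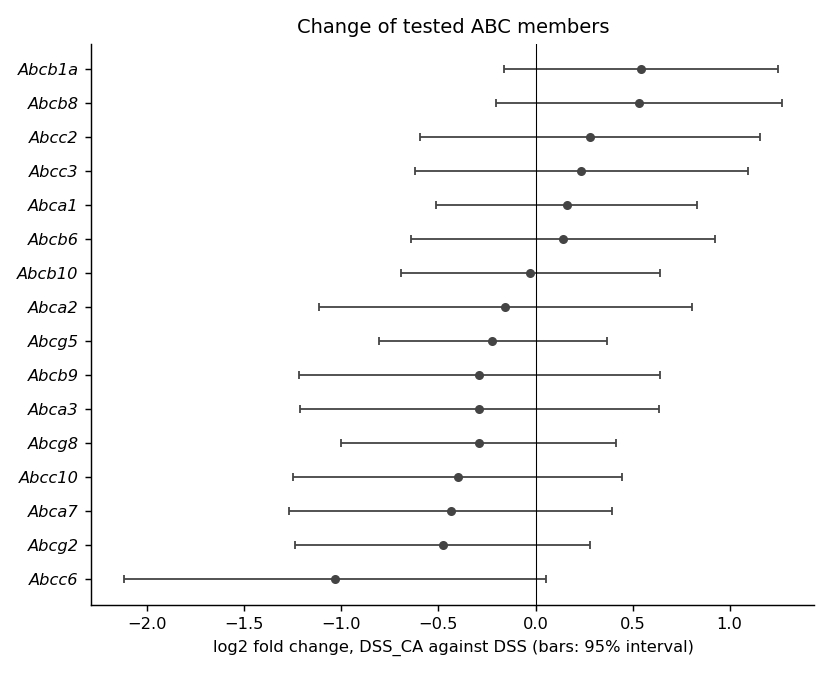
Log2 fold change of DSS_CA against DSS for 16 of the 17 tested members, ordered by size, with bars for the 95% interval of the edgeR estimate. The estimates run from 0.54 (Abcb1a) to -1.03 (Abcc6), and every interval drawn includes 0.

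Neither gene of the sterol exporter passed the test. Abcg5, which encodes the subunit that pairs with ABCG8, had 195, 250, 265 and 241 CPM (scaled by TMM, as all CPM here) in DSS_CA 1 to 4, against 240, 328, 283 and 258 CPM in DSS 1 to 4. The groups overlapped, with DSS_CA 1 the lowest and DSS 2 the highest library. Its log2 fold change was -0.22 (SE 0.268, 95% interval -0.81 to 0.37, adjusted p = 0.968). Abcg8 had 116, 107, 63.8 and 125 CPM in DSS_CA 1 to 4, against 164, 84.2, 107 and 149 CPM in DSS 1 to 4. The lowest values were in DSS_CA 3 and DSS 2, DSS 1 and DSS 4 were above every DSS_CA library, and DSS 3 lay among them. The log2 fold change was -0.29 (SE 0.323, 95% interval -1.0 to 0.42, adjusted p = 0.965). The 2 genes share 82 exonic bases on opposite strands in GENCODE M21 (3.02% of Abcg5 and 2.19% of Abcg8), and since the strand setting of the counting is not given, reads there could be counted for either.

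Although ABCG5 and ABCG8 work as a pair, their transcripts were not held at a fixed ratio across libraries. Per length, Abcg5 exceeded Abcg8 2.53-, 3.54-, 6.28- and 2.92-fold in DSS_CA 1 to 4 and 2.22-, 5.88-, 3.99- and 2.61-fold in DSS 1 to 4. The groups spanned the same range. The mean log2 ratio was 1.84 ± 0.577 in DSS_CA and 1.77 ± 0.634 in DSS (SD, n = 4 each), a difference of 0.07 (two-sided exact permutation test over 70 assignments, p = 0.857, the smallest possible being 0.0286). The highest ratios, 6.28, 5.88 and 3.99, were those of DSS_CA 3, DSS 2 and DSS 3, the libraries of shortest counted genes. Abcg8 is also the longer gene, with 4989 against 3305 counted bases, and the part of library length in the ratio was not tested.

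**Figure D3:**
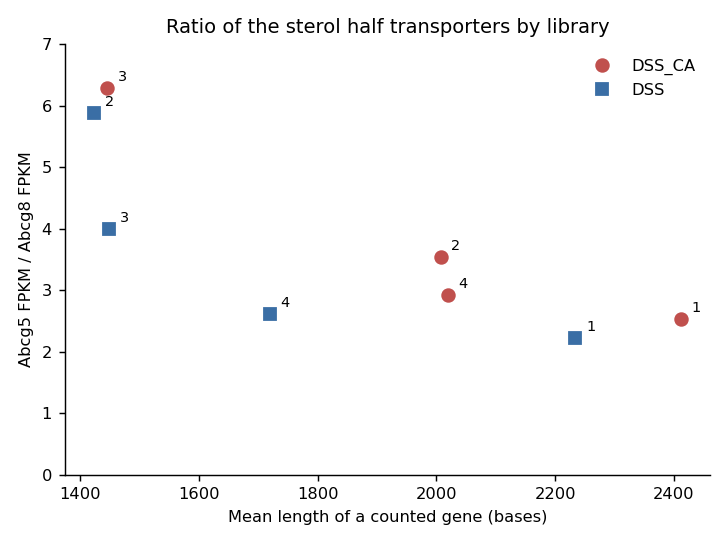
Ratio of Abcg5 to Abcg8 in deposited FPKM (y) against the mean length of a counted gene in bases, weighted by abundance (x). Each library is 1 point, labelled with its replicate number. The ratio lies between 2.22 and 6.28, and the 3 libraries of shortest counted genes hold its 3 highest values.

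Across the 8 libraries the scaled levels of Abcg5 and Abcg8 did not rise together. On log2(CPM + 1), Pearson's r was -0.425 (exact permutation p = 0.282) and Spearman's rho -0.619 (exact permutation p = 0.115), the 1 relation computed. Without DSS_CA 1 and DSS 2, the libraries farthest from the median of Abcg5, r was -0.494. On the log2 of the deposited FPKM, r was 0.86 (exact permutation p = 0.00814). The 2 scales differ by construction, since FPKM divides by the total count and the scaled CPM by a TMM library size as well, so the sign of this relation rests on the scaling.

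Of the other sterol exporters, only Abca1 was above the filter. Abca1 had 40.7, 43.1, 53.7 and 30.9 CPM in DSS_CA 1 to 4, against 52.1, 35.2, 24.3 and 38.9 CPM in DSS 1 to 4. The groups overlapped over most of their range (log2 fold change 0.16, SE 0.307, 95% interval -0.51 to 0.83, adjusted p = 0.996). The estimate turned to -0.001 without DSS 3 and to -0.28 without the 3 libraries of shortest counted genes. Abcg1, which exports cholesterol to high-density lipoprotein in macrophages, had 32 counts in the DSS_CA libraries together and 66 in the DSS libraries, or 0.16, 0.51, 0.72 and 0.76 CPM in DSS_CA 1 to 4 and 2.50, 0.15, 0.84 and 0.68 CPM in DSS 1 to 4. Its DSS sum was carried by DSS 1, and in a fit with no filter its log2 fold change was -0.90 (SE 0.768, adjusted p = 0.734). Abcg4, a relative of Abcg1 known from brain, had 6 counts in DSS_CA and 8 in DSS. Summed over Abcg5, Abcg8, Abca1, Abcg1 and Abcg4, sterol exporter transcripts came to 353, 401, 384 and 397 CPM in DSS_CA 1 to 4 and 459, 448, 416 and 447 CPM in DSS 1 to 4. The sums of the groups did not overlap, although Abcg5, which makes up most of each sum, Abcg8 and Abca1 each did. Of single tested genes, 2.81% were lower in DSS_CA with no overlap, and no such share was computed for sums. The sums are therefore a description with no test, and they rest on scaled CPM. On deposited FPKM the mean of Abcg5 was 76.5 in DSS_CA and 77.4 in DSS.

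**Figure D4:**
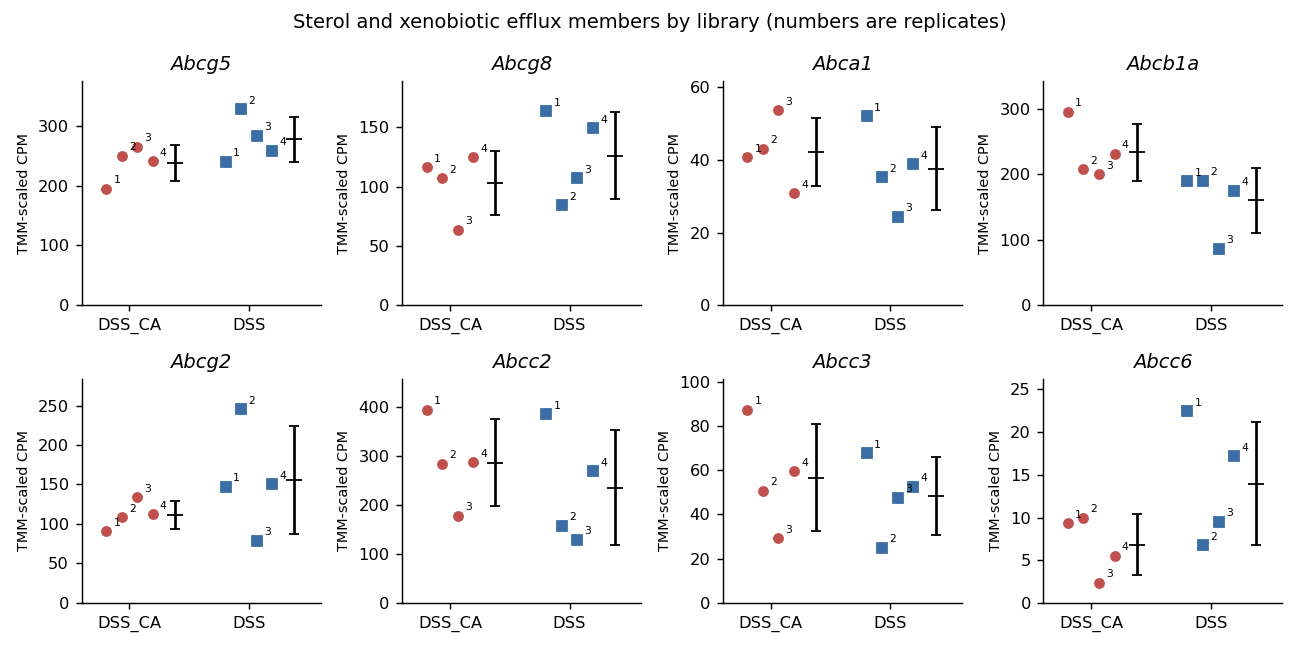
TMM-scaled CPM of 8 efflux members in each library, DSS_CA left of DSS, with replicate numbers beside the points and the mean and SD (n = 4) as bars; each axis starts at 0. Abcb1a is the only one of the 8 whose groups do not overlap, with 200 CPM as the lowest DSS_CA value and 190 CPM as the highest DSS value.

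Sterol uptake and handling outside the family, lipoprotein assembly included, was represented by 12 tested genes, of which 5 were above and 7 below 0 and 0 passed. Npc1l1, the apical cholesterol importer that the sterol exporter opposes, had 262, 194, 114 and 212 CPM in DSS_CA 1 to 4, against 906, 299, 314 and 675 CPM in DSS 1 to 4. Every DSS_CA library was below every DSS library, as in 2.81% of all tested genes. The difference did not pass over all genes (log2 fold change -1.49, SE 0.434, unadjusted p = 0.00536, adjusted p = 0.25, edgeR). Mttp, which loads lipid onto apolipoprotein B, stood at 0.86 (SE 0.306, adjusted p = 0.414, edgeR). For Mttp every DSS_CA library was above every DSS library, as in 3.24% of all tested genes. LXR and its targets outside the family had 9 tested genes, 4 above and 5 below 0, with a median of -0.03 and 0 called. The LXR genes themselves, Nr1h3 and Nr1h2, stood at 0.08 and -0.40, and the lipogenic target Scd1 at 1.88 (adjusted p = 0.153).

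The exporters of bile salts and phospholipids in liver were nearly absent from these crypts. Abcb11, the canalicular bile salt export pump, had 5 counts in the DSS_CA libraries together, all in DSS_CA 1, and 2 in the DSS libraries, both in DSS 1. Abcb4, the canalicular phosphatidylcholine translocator, had 0 counts in DSS_CA and 1 in DSS. A difference was not detectable at this depth for either gene. By contrast Slc51a, a subunit of the basolateral bile acid exporter of the gut, had 312, 263, 327 and 366 CPM in DSS_CA 1 to 4 and 229, 133, 311 and 222 CPM in DSS 1 to 4. Of the 7 tested genes of FXR and bile acid handling, 6 were above 0, with a median of 0.62, and 0 passed. The FXR targets Fgf15 and Nr0b2 were the members with the smallest p, at 2.27 and 2.03 (adjusted p = 0.125 and 0.119, edgeR). With no filter Fgf15 passed, at 2.33 (adjusted p = 0.0356).

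Abcb1a, which encodes P-glycoprotein and lies on chromosome 5 from 8660077 to 8748575, had the largest positive estimate. It had 296, 208, 200 and 232 CPM in DSS_CA 1 to 4, against 190, 190, 86.6 and 175 CPM in DSS 1 to 4. Every DSS_CA library was above every DSS library in scaled CPM, by a narrow margin between DSS_CA 3 and DSS 1 and 2. Such separation in that direction was shown by 3.24% of all tested genes. On deposited FPKM the groups overlapped, with DSS_CA 3 at 20.94 FPKM, below DSS 1 at 32.85 and DSS 4 at 24.99 FPKM. The log2 fold change was 0.54 (SE 0.322, 95% interval -0.16 to 1.25, unadjusted p = 0.119, adjusted p = 0.798), so the difference did not pass even before adjustment. It was 0.34 to 0.64 with each library left out. Next to it, Abcb1b had 24 counts in DSS_CA and 14 in DSS, at most 0.98 CPM in any library (log2 fold change 0.77 with no filter, SE 1.16, adjusted p = 0.855). The 2 genes share 889 runs of 50 bases, which are 16.3% of those of Abcb1a and 11.1% of those of Abcb1b, so the few counts of Abcb1b are uncertain.

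Abcg2, the breast cancer resistance protein of the apical membrane, had an estimate below 0 that did not pass the test. It had 91.1, 109, 134 and 112 CPM in DSS_CA 1 to 4, against 147, 245, 79.0 and 150 CPM in DSS 1 to 4. The DSS libraries spread widely, and DSS 3 was the lowest of all 8 while the other 3 were above every DSS_CA library. The log2 fold change was -0.48 (SE 0.347, 95% interval -1.24 to 0.28, adjusted p = 0.893), and -0.70 to -0.17 with each library left out.

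Among the multidrug resistance proteins of subfamily C, Abcc2 and Abcc3 varied widely within each group. Abcc2, the apical exporter of glutathione and glucuronide conjugates, had 395, 284, 178 and 287 CPM in DSS_CA 1 to 4, against 386, 158, 129 and 269 CPM in DSS 1 to 4. Replicate 1 of both groups was the highest, and DSS 3, DSS 2 and DSS_CA 3 were the lowest (log2 fold change 0.28, SE 0.400, 95% interval -0.60 to 1.16, adjusted p = 0.982). Abcc3, its basolateral counterpart, had 87.4, 50.7, 29.2 and 59.4 CPM in DSS_CA 1 to 4, against 67.6, 25.0, 47.5 and 52.5 CPM in DSS 1 to 4. The groups overlapped, again with DSS_CA 3 and DSS 2 lowest (log2 fold change 0.24, SE 0.391, 95% interval -0.62 to 1.09, adjusted p = 0.991). Without the 3 libraries of shortest counted genes the estimate of Abcc2 was -0.06, and without DSS_CA 1 that of Abcc3 was -0.05.

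Abcc6, whose protein promotes ATP release and, in humans, is mutated in pseudoxanthoma elasticum, had the largest estimate of the 17. It had 9.35, 9.997, 2.35 and 5.51 CPM in DSS_CA 1 to 4, against 22.4, 6.79, 9.51 and 17.2 CPM in DSS 1 to 4. DSS 1 and DSS 4 were above every DSS_CA library, whereas DSS 2 and DSS 3 lay among them. The log2 fold change was -1.03 (SE 0.495, 95% interval -2.12 to 0.05, unadjusted p = 0.0603, adjusted p = 0.669). Without DSS 2, DSS 3 and DSS_CA 3 it was -1.29 with an adjusted p of 0.0485, in a fit of 3 DSS_CA and 2 DSS libraries where 4.25% of all genes were called lower. Abcc10, a drug exporter, had 17.4, 11.9, 7.57 and 13.3 CPM in DSS_CA 1 to 4, against 25.2, 8.62, 12.8 and 19.7 CPM in DSS 1 to 4, with overlapping groups (log2 fold change -0.40, SE 0.387, adjusted p = 0.945).

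The remaining exporters of this kind were expressed at low levels. Abcc1, the broadly expressed exporter of glutathione conjugates, had 498 counts in DSS_CA and 387 in DSS, or 9.88, 7.09, 2.86 and 9.32 CPM in DSS_CA 1 to 4 and 9.21, 3.20, 4.26 and 7.78 CPM in DSS 1 to 4. It stayed under the filter because its FPKM was at most 0.833, and with no filter its log2 fold change was 0.33 (SE 0.445, adjusted p = 0.828). Abcc4, an exporter of cyclic nucleotides and bile acids, had 156 and 102 counts in DSS_CA and DSS, or 3.06, 2.85, 0.51 and 2.62 CPM in DSS_CA 1 to 4 and 2.81, 0.46, 1.22 and 1.92 CPM in DSS 1 to 4 (0.58 with no filter, SE 0.593, adjusted p = 0.745). In both genes DSS_CA 3 and DSS 2 were the lowest of their groups. Abcc5, an exporter of cyclic nucleotides and organic anions, had 423 counts in DSS_CA and 391 in DSS, and Abcc12 had 3 in DSS_CA and 5 in DSS.

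The receptors and factors that control xenobiotic exporters gave no call with the filter. Of 11 tested genes of PXR, CAR and their targets outside the family, 6 were above and 5 below 0, with a median of 0.33. Groups did not overlap for Gsta1, higher in DSS_CA, as in 3.24% of all tested genes. Nor did they for Cyp2b10, lower in DSS_CA, as in 2.81% of all tested genes. Cyp2b10 stood at -1.05 (SE 0.308, adjusted p = 0.253, edgeR). The receptor genes Nr1i2 (PXR) and Nr1i3 (CAR) stood at -0.01 and 0.33, the glutathione transferase Gsta1 at 1.42 (adjusted p = 0.184) and the cytochrome P450 gene Cyp2c55 at -2.10 (adjusted p = 0.203, edgeR). Of 11 tested genes of NRF2 and its targets, 9 were above 0, with a median of 0.46, and in 5 every DSS_CA library was above every DSS library, where 3.24% of all tested genes did so. Gclc, the catalytic subunit of glutathione synthesis, was among them with 104, 105, 82.0 and 119 CPM in DSS_CA 1 to 4, against 42.7, 31.2, 34.8 and 38.05 CPM in DSS 1 to 4 (log2 fold change 1.48, SE 0.262, adjusted p = 0.0502). With no filter Gclc passed, at 1.55 (adjusted p = 0.0356). Gclm, of the same list, went the other way, at -0.40 with overlapping groups (SE 0.297, adjusted p = 0.896, edgeR with the filter). The groups overlapped for Abcc2 and Abcc3, which NRF2 can induce, and the part of NRF2 in their levels was not tested. Of the 3 tested scaffold genes that anchor apical transporters, Pdzk1 had the smallest p (-0.96, SE 0.308, adjusted p = 0.327).

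Subfamily A beyond Abca1 was represented by 3 tested members, all with estimates below 0 and none called. Abca7, a relative of Abca1 that moves phospholipids, had 39.3, 29.1, 16.7 and 28.3 CPM in DSS_CA 1 to 4, against 50.4, 17.5, 37.5 and 48.1 CPM in DSS 1 to 4. DSS 2 and DSS_CA 3 were lowest and the groups overlapped (log2 fold change -0.44, SE 0.380, adjusted p = 0.926). Abca3, the lamellar body lipid transporter of lung, stood at -0.29 (SE 0.421) and Abca2, a late endosomal lipid transporter, at -0.16 (SE 0.438). Both changed sign without DSS 1, to 0.06 and 0.09. The other 12 members of the subfamily were under the filter or without counts, the most counted being Abca14 with 65 counts in DSS_CA and 51 in DSS and Abca5 with 28 in DSS_CA and 52 in DSS. Abca12, the lipid transporter of the skin barrier, had 8 in DSS_CA and 15 in DSS. Abca8b had 29 in DSS_CA and 11 in DSS, and Abca4, the retinal transporter, Abca6, Abca8a, Abca9, Abca13 and Abca15 had 0 to 6 counts in each group.

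Transporters of internal membranes in subfamily B gave no call. Abcb8, a subunit of a mitochondrial potassium channel complex, had 59.3, 53.4, 41.3 and 54.3 CPM in DSS_CA 1 to 4, against 34.9, 18.2, 54.0 and 36.9 CPM in DSS 1 to 4. DSS 3 reached the level of the DSS_CA libraries and the other DSS libraries were below all of them (log2 fold change 0.53, SE 0.335, adjusted p = 0.843). Abcb6, a porphyrin transporter, stood at 0.14, Abcb10, a mitochondrial transporter of haem-forming cells, at -0.03 and Abcb9, a lysosomal peptide transporter, at -0.29. Abcb6 and Abcb10 changed sign when a library was left out. Abcc8 and Abcc9, the sulfonylurea receptors that regulate potassium channels, had 48 and 1 counts in DSS_CA and 70 and 1 in DSS.

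Superfamily members outside the rule gave 10 tested genes, 7 of them above 0, with a median of 0.26 and 0 called. Tap2, a subunit of the transporter that loads peptides onto MHC class I, had the smallest p among them, with 32.1, 33.2, 21.3 and 27.04 CPM in DSS_CA 1 to 4, against 61.8, 35.3, 72.3 and 57.3 CPM in DSS 1 to 4. The groups did not overlap, as in 2.81% of all tested genes in that direction. The difference did not pass over all genes (log2 fold change -0.996, SE 0.301, unadjusted p = 0.00674, adjusted p = 0.279, edgeR). Cftr, the chloride channel of crypts that belongs to subfamily C by sequence, stood at -0.26 (SE 0.325, adjusted p = 0.972).

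Many of the 17 members shared their lowest and their highest library within a group. In scaled CPM, DSS_CA 3 was the lowest library of its group for 13 of the 17 members, against 46.5% of all tested genes, and DSS_CA 1 was the highest for 10 (31.2% of all tested genes). Among the DSS libraries, DSS 2 was the lowest for 11, against 35.3% of all tested genes, DSS 3 for 5 (29.5% of all tested genes), and DSS 1 was the highest for 10 (32.6% of all tested genes). DSS_CA 3, DSS 2 and DSS 3 are the libraries of shortest counted genes by the weighted mean. The tested members are long, with an unweighted median of 7530 counted bases against 4713 for all tested genes. The part of gene length in this pattern was not tested. A fit with a gene-length offset called 0 members between DSS_CA and DSS (0.615% of all tested genes), as the main fit did. Such calls do not bear on the order of libraries within a group.

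A further member, too scarce to be tested above the filter, also had groups that did not overlap. Abcg3, a rodent gene known from lymphoid and haematopoietic cells, is named here after its values were seen. It had 0.11, 0.25, 0.61 and 0.27 CPM in DSS_CA 1 to 4, against 0.67, 2.90, 2.05 and 1.97 CPM in DSS 1 to 4, from 17 counts in DSS_CA and 111 in DSS. Every DSS_CA library was below every DSS library, which held for 3.65% of all 19457 genes that had any count. In a fit with no filter its log2 fold change was -2.60 (SE 0.689, unadjusted p = 0.00123, adjusted p = 0.106), where 0.314% of those genes were called lower. The adjusted p was 0.0208 without DSS_CA 3 and 0.0468 without DSS 1, and 0.148 to 0.286 without any other library. Markers of lymphocytes are given beside it. The sum over 8 T and NK cell genes was 99.6, 251, 1085 and 241 CPM in DSS_CA 1 to 4, against 496, 1949, 1902 and 1084 CPM in DSS 1 to 4. All 8 had estimates below 0, 5 of them with groups that did not overlap (2.81% of all tested genes in that direction), and 0 were at 0 counts. None was called with the filter, whereas in the fit with no filter Lck (adjusted p = 0.0353), Nkg7 (0.0356) and Cd8a (0.0419) were lower. The sum over 5 B and plasma cell genes was 7.45, 13.8, 21.8 and 13.8 CPM in DSS_CA 1 to 4, against 28.5, 65.8, 43.5 and 41.9 CPM in DSS 1 to 4. These sums did not overlap, and no share over other sets of genes was computed. The 3 of them that were tested had a median log2 fold change of -1.76, and 0 passed with the filter, whereas Igkc was lower with no filter (adjusted p = 0.0419). The part of lymphocytes in the level of Abcg3 was not tested.

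**Figure D5:**
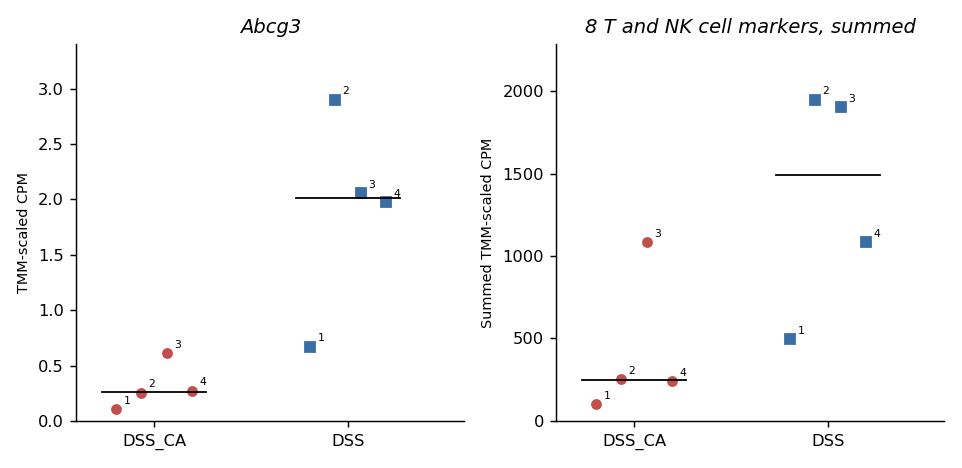
TMM-scaled CPM of Abcg3 (left panel) and the summed TMM-scaled CPM of 8 T and NK cell markers (right panel) in each library, DSS_CA left of DSS, with replicate numbers beside the points and a line at each group's median. In both panels DSS_CA 1 is the lowest library, DSS_CA 3 is the highest of its group and DSS 1 the lowest of its group. This order is not particular to these genes. The summed Paneth and enterocyte markers also had DSS_CA 1 lowest and DSS_CA 3 highest of DSS_CA, and DSS 1 lowest of DSS.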

How the data were processed

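TruSeq Stranded Total RNA libraries were built from 200 ng of RNA isolated with RNeasy Micro columns, per the labels' protocols. HISAT2, StringTie, GRCm38 and mm10 are named in the submitters' processing notes without versions or roles, and no source used here gives the counting tool or whether it used strand. Each library was deposited as a table of 34745 genes holding, per the file headers, raw counts and FPKM. The deposited FPKM equalled count over gene length and total count.

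Genes with a deposited FPKM of at least 1 in at least 4 of 8 libraries (9913) were compared with edgeR 4.0.16 (limma 3.58.1, R 4.3.3): quasi-likelihood test on counts, TMM scaling, group as only term, two-sided, Benjamini-Hochberg adjustment over all genes tested, threshold 0.05, fold changes as DSS_CA against DSS. SE is the absolute log2 fold change over the square root of F. DESeq2 1.42.0, RLE scaling, other filters, a replicate block, a gene-length offset and leaving out libraries were alternatives. The procedure was tested on simulated data. Replicates of a group all differed by more than sampling noise. Promoter windows came from RefSeq (GRCm38.p6), transcripts and overlaps from GENCODE M21. Python 3.11.15, numpy 2.4.6, pandas 2.3.3, scipy 1.17.1 and matplotlib 3.10.9 were used.

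The members, gene lists and tests were chosen with earlier results of these data known. The rule for genes given per library named 13 efflux members of fixed interest whatever their values and the 6 tested members with the smallest p. Genes of other lists named in the text are the 2 with the smallest p of a list or were chosen after their values were seen. Intervals are those of the edgeR estimates and include the spread between libraries, whereas the limit given for a count of 0 covers counting error only. The values of 1 tested member are not reported here, while counts over the members include it.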

Additional observations from a re-analysis of the deposited data

Results flagged for a closer look

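Among 44 groups of 4 libraries checked, 1 held a library that stood apart from the other 3. Abcb1a in DSS 3 was at 86.6 CPM, while the other DSS libraries lay between 175 and 190 CPM, so that the gap took 0.852 of the range of the group, above Dixon's 95% critical value for 4 libraries. Chance gives such a result in about 1 in 20 groups. Without DSS 3 the log2 fold change of Abcb1a was 0.34, against 0.54 with all libraries.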

How the results depend on the processing

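Of the 17 members above the filter, 0 were called higher and 0 lower under every alternative, and with each library left out (0 to 0 in both directions), with 1 exception. Without DSS 2, DSS 3 and DSS_CA 3, 1 member was lower, Abcc6 (-1.29, adjusted p = 0.0485, edgeR). In that fit 7 of the 17 members had an unadjusted p below 0.05, beside 2728 of all 9913 tested genes. Calls over all genes moved much more. Against 4 higher and 9 lower, they were 7 and 20 with RLE size factors, 18 and 61 with no filter, 18 and 43 with the gene-length offset, 51 and 169 with DESeq2, 234 and 421 without those 3 libraries, and 0 to 19 and 4 to 65 with each library left out, the highest counts without DSS_CA 3. The causes were not tested. Of 128 estimates of the 16 tested members reported, each with 1 library left out, 8 turned, and of 112 under other settings, 5 did. Estimates that turned were Abca1 at -0.285 without the 3 libraries and -0.001 without DSS 3 and Abcc2 at -0.058 without the 3 libraries. Others were Abca2 at 0.053 without DSS_CA 3 and, with Abca3, above 0 without DSS 1, Abcb6 without DSS 2 and Abcc3 without DSS_CA 1. Abcb10 turned to 0.046 with no filter, 0.015 with edgeR's own filter, 0.022 with the replicate block, 0.059 without DSS_CA 3 and also without DSS 1. For Abcg3, edgeR's own filter (-2.64, adjusted p = 0.118) and leaving out libraries with no filter were chosen after seeing the data, and it passed without DSS_CA 3 (-3.07, adjusted p = 0.0208) and without DSS 1 (-2.89, adjusted p = 0.0468). With each library left out, the members that turned ranged from -0.001 to 0.358 (Abca1), -0.413 to 0.094 (Abca2), -0.556 to 0.055 (Abca3), -0.037 to 0.462 (Abcb6), -0.190 to 0.194 (Abcb10) and -0.051 to 0.451 (Abcc3).

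The labels give both groups the replicate numbers 1 to 4. Same-numbered libraries deviated with correlations of 0.78, -0.382, 0.106 and 0.226, and only DSS_CA 1 correlated best with its own number. The labels do not say whether equal numbers mark pairs. These correlations cannot decide it, since they also carry any other difference between libraries. With the replicate block, 14 genes were higher and 51 lower, with 0 members among them. The correlation of Abcg5 and Abcg8 was 0.86 on deposited FPKM, against -0.425 on scaled CPM, and -0.544 to -0.262 with each library left out. Depth limited Abcb11 and Abcb4, with at most 5 counts in a group, but not Abcc1, a long gene with 498 counts in DSS_CA and 387 in DSS that stayed under the filter on FPKM.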

Other observations

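Abcg2 and Abcb1a encode apical drug exporters with partly shared substrates. Per length, Abcg2 stood at 0.201, 0.342, 0.437 and 0.317 of Abcb1a in DSS_CA 1 to 4, against 0.507, 0.841, 0.596 and 0.561 in DSS 1 to 4. The groups did not overlap. The pair was chosen after its values were seen, and the groups did not overlap for 15 of the 136 pairs of tested members (11.0%), so the ratio is given as a description with no test. Neither gene passed alone.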
